A study of Oryza sativa Japonica Group with 8 samples.

Results

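Transcripts of the enzymes that make ethylene were measured in the leaves of Nipponbare, a Japonica cultivar of rice. The genes are the 4 ACC synthase genes ACS1, ACS2, ACS5 and ACS6 and the 4 ACC oxidase genes ACO1, ACO3, ACO4 and ACO5. They were taken by identifier from a list of the 2 gene families, with no threshold on their values, and all 8 were found among the 55801 genes of the count table. RefSeq gave a matching name for ACS1, ACS2 and ACO1, and the other 5 carry the names under which their identifiers were listed. Carbon dot (CD) seedlings grew from sterilized seed on 1/2 MS, a mineral salt medium, holding 0.56 mg/ml of carbon dots, which are small carbon nanoparticles. Control (CK) seedlings grew on 1/2 MS without them, and neither group carried a labelled mutation or transgene. RNA was sequenced in 2 CD and 2 CK libraries, and the 4 bisulfite samples of the series were not analysed here. The labels give an age of 2 weeks and the protocol 3 weeks of growth, and they do not say whether a library held 1 plant or a pool.

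Ethylene is a gaseous plant hormone made from methionine. Methionine is first activated to S-adenosylmethionine (SAM), ACC synthase turns SAM into 1-aminocyclopropane-1-carboxylate (ACC), and ACC oxidase, an iron enzyme that uses ascorbate, turns ACC into ethylene. ACC synthase is commonly the limiting step, and both enzymes come from small gene families whose members answer to different signals. In rice, ethylene is best known for the elongation of flooded shoots, for root growth and for leaf senescence.

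The libraries held 74853055 and 49281927 counts in CD replicates 1 and 2, and 80317398 and 60763633 counts in CK replicates 1 and 2. The CD replicates lay far from each other in a principal component analysis. Component 1, with 46.6% of the variance, placed CD replicate 1 at -76.4 and CD replicate 2 at 2.3, and the CK libraries at 51.3 and 22.8. Component 2, with 32.1%, placed CD replicate 2 at -67.8, away from the other 3 libraries. Values with single libraries left out are given beside the results they move. Among the leaf markers, the antenna genes CAB1R and CAB2R and the plastid glutamine synthetase gene GS2 were all counted in every library. The whole list of 5 leaf markers summed to 17979 and 10473 TPM in the CD libraries. In the CK libraries it summed to 21569 and 30897 TPM (a transcript level scaled by gene length and by library). All 5 had a negative fold change, against 12869 of the 26271 genes tested. DESeq2 called 2 of the 5 lower, against 303 of all genes, and edgeR called 0, as over all genes. For 3 of the 5 the groups overlapped. The 3 root markers summed to 30.0 and 34.0 TPM in the CD libraries and to 35.5 and 42.7 TPM in the CK libraries, and 1 of them had 0 counts throughout. The list for meristem and dividing cells summed to 35.7 and 31.8 TPM in the CD libraries and to 29.9 and 31.1 TPM in the CK libraries. Of its 2 genes, the replication gene PCNA had a log2 fold change of 0.06, and no read of the meristem gene OSH1 was counted in either CD library, against 117 and 42 in the CK libraries. DESeq2 called OSH1 lower (DESeq2 adjusted p = 1.07e-04) and edgeR did not (edgeR adjusted p = 0.460). The part of these shifts in the results that follow was not tested, and in whole leaves fewer cells of a type and less RNA per cell cannot be told apart.

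The members fell into an abundant and a scarce set. Over the 4 libraries, ACO1 averaged 166 TPM, ACO3 127 TPM, ACS6 90.8 TPM and ACO5 64.7 TPM. The scarce set was ACS2 at 2.89 TPM, ACS5 at 2.11 TPM, ACS1 at 1.46 TPM and ACO4 at 0.390 TPM. Among the ACC synthase genes ACS6 alone was in the abundant set, and among the ACC oxidase genes ACO4 alone was in the scarce set. Among the members the gap between the sets was wide. ACO5 was at no less than 59.7 TPM in any library and ACS2 at no more than 6.11 TPM. Within the abundant set the ranges over libraries of ACO1 and ACO3 overlapped. The ratio of ACO1 to ACO3 in TPM was 2.15 and 1.04 in the CD libraries and 0.439 and 1.59 in the CK libraries. ACO1 was thus above ACO3 in every library but CK replicate 1. ACO3 at its lowest (103.3 TPM) was above ACS6 at its highest (99.7 TPM), and ACS6 at its lowest (71.7 TPM) was still above ACO5 at its highest (69.8 TPM). Within the scarce set every pair of neighbours overlapped. The level of ACO3 per length rests on a gene model of 3158 exon bases in 3 blocks, while the other ACC oxidase models hold 1395 to 1496 bases.

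**Figure D1:**
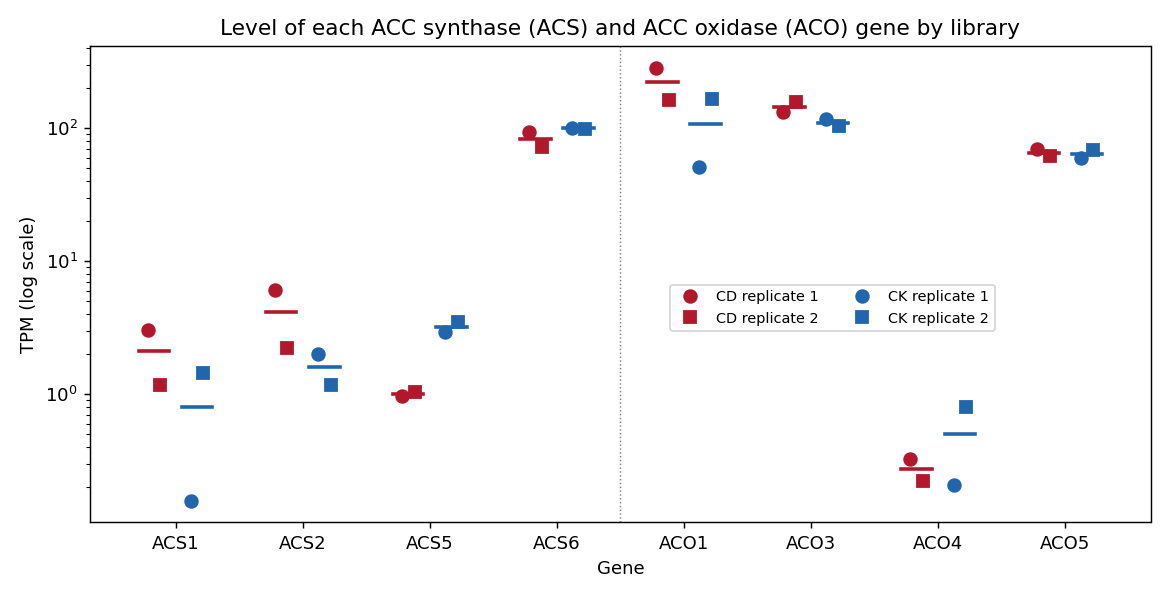
TPM on a log axis for each gene, with CD (red) left of CK (blue), a circle for replicate 1, a square for replicate 2 and a line at each group's mean. The replicates of ACS5 lie close together (0.968 and 1.03 TPM in CD, 2.95 and 3.50 TPM in CK) and apart from the other group, while ACS1 and ACO1 spread widely within CK (0.159 and 1.44 TPM, 51.2 and 165 TPM).

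CD was compared with CK by edgeR's quasi-likelihood test over the 26271 genes that passed its filter on low counts, all 8 members among them. Log2 fold changes are CD minus CK, and p-values were adjusted by Benjamini-Hochberg over all genes. At an adjusted p of 0.05 edgeR called 0 of the 8 members, in a table where it called 0% of genes. DESeq2, run as an alternative, called 1 of 8 lower, ACS5, where it called 1.15% of all genes lower, and 0 of 8 higher, where it called 0.757% of all genes higher. At an unadjusted edgeR p of 0.05 ACS5 was again the only member, 1 of 8 against 8.7% of all genes. In CPM (counts scaled to normalized library size, not to gene length), both CD libraries lay above both CK libraries for ACS2 and ACO3, 2 of 8 against 17.8% of all genes. Both lay below for ACS5 and ACS6, 2 of 8 against 20.7% of all genes, so these shares are near the background. The median log2 fold change was 0.10 over the 8 members and 0.01 over all genes tested. Its median absolute size was 0.94 over the members and 0.22 over all genes tested. The genes tested were not matched to the members for level or spread. The SE was 0.59 for ACO1, 0.79 for ACO4 and 1.03 for ACS1, and 0.30 for ACS5.

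ACS5 (LOC_Os01g09700) was the member that stood lowest with carbon dots relative to the control. In submerged rice seedlings ACS5 is known as an ACC synthase gene induced by low oxygen. It had 76 and 53 counts in the CD libraries against 251 and 224 counts in the CK libraries. As levels, that was 0.964 and 1.05 CPM in the CD libraries against 3.23 and 3.84 CPM in the CK libraries. Both CD libraries were low and both CK libraries high, and the CD replicates differed 1.09-fold and the CK replicates 1.19-fold. Its level averaged 1.01 ± 0.06 CPM in CD and 3.53 ± 0.43 CPM in CK (SD, n = 2 each). The log2 fold change was -1.81 ± 0.30 (SE, 95% interval -2.57 to -1.04), that is 3.50-fold lower in CD. Its unadjusted p by edgeR was 0.00168, rank 82 of the 26271 genes, and its adjusted p was 0.460. By DESeq2 the log2 fold change was -1.80 ± 0.38 with an adjusted p of 6.74e-04, and over all alternatives the adjusted p lay between 6.74e-04 and 1.00. The fold change itself moved little when a library was left out, from -1.92 without CK replicate 1 to -1.67 without CK replicate 2. ACS5 lies on chromosome 1 from 5002118 to 5005727 on the minus strand, with 5 exon blocks.

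ACS6 (LOC_Os06g03990) made up most of the ACC synthase signal and was also lower in both CD libraries. It had 9101 and 4586 counts in the CD libraries against 10590 and 7927 counts in the CK libraries. In CPM its level was 115 and 91.3 in the CD libraries against 136.3 and 135.8 in the CK libraries. The groups did not overlap, with CK replicates that were nearly equal and CD replicates 1.26-fold apart. The log2 fold change was -0.40 ± 0.18 (SE, 95% interval -0.85 to 0.06, edgeR adjusted p = 0.612), which did not pass the test. Leaving out CD replicate 1 gave -0.57, and leaving out CD replicate 2 gave -0.24. The gene lies on chromosome 6 from 1629717 to 1633629 on the plus strand, with 4 exon blocks.

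ACS1 and ACS2 had positive fold changes, and neither passed the test. Both genes are known in rice from mutants with altered root growth under low phosphate, and ACS2 also from lines in which its overexpression raised resistance to fungal disease. ACS2 (LOC_Os04g48850) had 549 and 131 counts in the CD libraries against 197 and 86 counts in the CK libraries. Its level was 6.96 and 2.61 CPM in the CD libraries against 2.54 and 1.47 CPM in the CK libraries. CD replicate 1 was high, and CD replicate 2 lay just above CK replicate 1. The log2 fold change of ACS2 was 1.26 ± 0.56 (SE, 95% interval -0.18 to 2.70, edgeR adjusted p = 0.616). Leaving out 1 library gave values between 0.38, when CD replicate 1 was left out, and 1.79, when CD replicate 2 was. ACS1 (LOC_Os03g51740) had 249 and 62 counts in the CD libraries against 14 and 95 counts in the CK libraries. Its level was 3.16 and 1.23 CPM in the CD libraries against 0.180 and 1.63 CPM in the CK libraries. The groups overlapped, with CD replicate 1 highest and CK replicate 1 lowest, and the CK replicates alone differed 9.03-fold. The log2 fold change of ACS1 was 1.31 ± 1.03 (SE, 95% interval -1.34 to 3.95, edgeR adjusted p = 0.828), and it ran from 0.44 without CK replicate 1 to 3.61 without CK replicate 2. ACS2 lies on chromosome 4 from 29131810 to 29134682 and ACS1 on chromosome 3 from 29660662 to 29662927, both on the minus strand with 4 exon blocks.

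Within a library, the level of ACS5 relative to ACS1 and to ACS2 differed between groups. The ratio of ACS2 to ACS5 in TPM was 6.31 and 2.16 in the CD libraries and 0.686 and 0.336 in the CK libraries. The ratio of ACS1 to ACS5 was 3.17 and 1.13 in the CD libraries and 0.0539 and 0.410 in the CK libraries. Of the 3 scarce ACC synthase genes, ACS5 was least abundant in both CD libraries and most abundant in both CK libraries. ACS1 was below ACS2 in both CD libraries and in CK replicate 1, and above ACS2 in CK replicate 2. ACS5 is the denominator of both ratios, so its difference between groups enters both. These ratios do not depend on how libraries were scaled, and they were chosen after the values were seen. They were not tested, and 2 libraries against 2 cannot give a two-sided exact permutation p below 0.333.

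**Figure D2:**
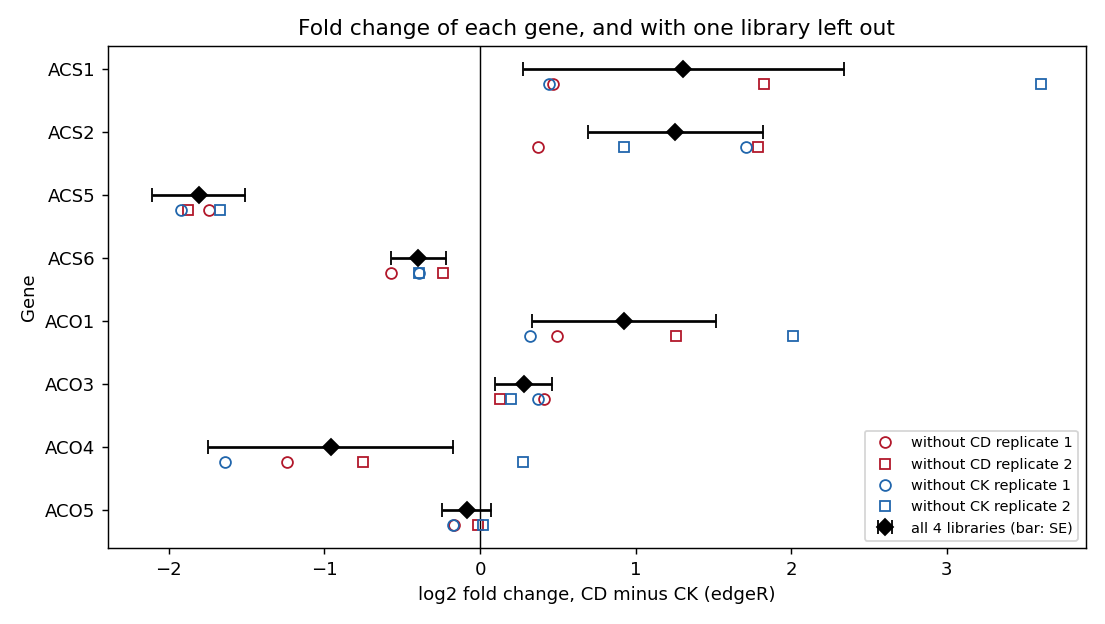
Log2 fold changes by edgeR, CD minus CK, from all 4 libraries (diamonds, bars are the SE) and with 1 library left out (open symbols below, red for a CD and blue for a CK library). ACS5 stays between -1.92 and -1.67, whereas ACS1 ranges from 0.44 to 3.61 and ACO1 from 0.32 to 2.01.

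ACO1 (LOC_Os09g27820), known from deepwater rice as an ACC oxidase gene of the elongating internode, had the widest range in TPM of the abundant members. It had 17108 and 6382 counts in the CD libraries against 3330 and 8056 counts in the CK libraries. Its level was 217 and 127 CPM in the CD libraries against 42.9 and 138 CPM in the CK libraries. The groups overlapped, because CK replicate 2 lay above CD replicate 2, while CK replicate 1 lay far below the others. The mean was 172 ± 63.5 CPM in CD and 90.4 ± 67.2 CPM in CK (SD, n = 2 each), a log2 fold change of 0.93 ± 0.59 (SE, 95% interval -0.58 to 2.44, edgeR adjusted p = 0.753). Leaving out CK replicate 1 gave 0.32 and leaving out CK replicate 2 gave 2.01, while leaving out CD replicate 1 gave 0.49 and CD replicate 2 gave 1.26. ACO1 lies on chromosome 9 from 16925457 to 16927082 on the plus strand, with 2 exon blocks.

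ACO3 (LOC_Os02g53180) was the ACC oxidase gene whose groups did not overlap. It had 17204 and 13317 counts in the CD libraries against 16394 and 10922 counts in the CK libraries. Its level was 218 and 265 CPM in the CD libraries against 211 and 187 CPM in the CK libraries, with CD replicate 1 only slightly above CK replicate 1. The log2 fold change was 0.28 ± 0.18 (SE, 95% interval -0.19 to 0.75, edgeR adjusted p = 0.765), and leaving out a CD library gave 0.13 (replicate 2) or 0.41 (replicate 1). ACO3 was also the abundant ACC oxidase with its highest value in CD replicate 2, where ACO1 and ACO5 were lower than in CD replicate 1. It lies on chromosome 2 from 32558635 to 32562705 on the plus strand.

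ACO5 (LOC_Os05g05680) was the steadiest member. It had 4004 and 2289 counts in the CD libraries against 3710 and 3183 counts in the CK libraries. Its level was 50.8 and 45.6 CPM in the CD libraries and 47.7 and 54.5 CPM in the CK libraries, with overlapping groups and replicates 1.11-fold apart in CD and 1.14-fold apart in CK. The log2 fold change was -0.09 ± 0.16 (SE, 95% interval -0.48 to 0.31, edgeR adjusted p = 0.946), with a sign that turned under total count scaling (0.02), on the TPM scale (0.03) and when CK replicate 2 was left out (0.02). ACO4 (LOC_Os11g08380) was scarce everywhere. It had 20 and 9 counts in the CD libraries against 14 and 40 counts in the CK libraries, so CK replicate 2 alone was high. Its log2 fold change was -0.96 ± 0.79 (SE, 95% interval -2.98 to 1.06, edgeR adjusted p = 0.841), which turned to 0.28 without CK replicate 2 and was -1.64 without CK replicate 1. Its CK replicates differed 3.80-fold in CPM. ACO5 lies on chromosome 5 from 2825323 to 2826992 on the plus strand, and ACO4 on chromosome 11 from 4415910 to 4418435 on the minus strand.

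Summed by enzyme, the ACC oxidase genes held several times the TPM of the ACC synthase genes. The 4 ACO genes summed to 487 and 381 TPM in the CD libraries and to 228 and 337 TPM in the CK libraries, a CD to CK ratio of 1.54. CK replicate 1 was lowest and CD replicate 1 highest, and the ratio lay between 1.29 without CK replicate 1 and 1.91 without CK replicate 2. The 4 ACS genes summed to 103 and 76.1 TPM in the CD libraries and to 104.8 and 105.4 TPM in the CK libraries, a CD to CK ratio of 0.852. In TPM CD replicate 2 alone was low, and without it the ratio was 0.980. In CPM both CD libraries were low, with sums of 126 and 96.2 against 142.2 and 142.7 in the CK libraries. The ACO sum was 4.73 and 5.01 times the ACS sum in the CD libraries and 2.17 and 3.20 times in the CK libraries. This ratio was thus higher in both CD libraries. Among single genes, both CD libraries lay above both CK libraries for 17.8% and below them for 20.7%, in CPM. No test was made of these sums or of their ratio.

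**Figure D3:**
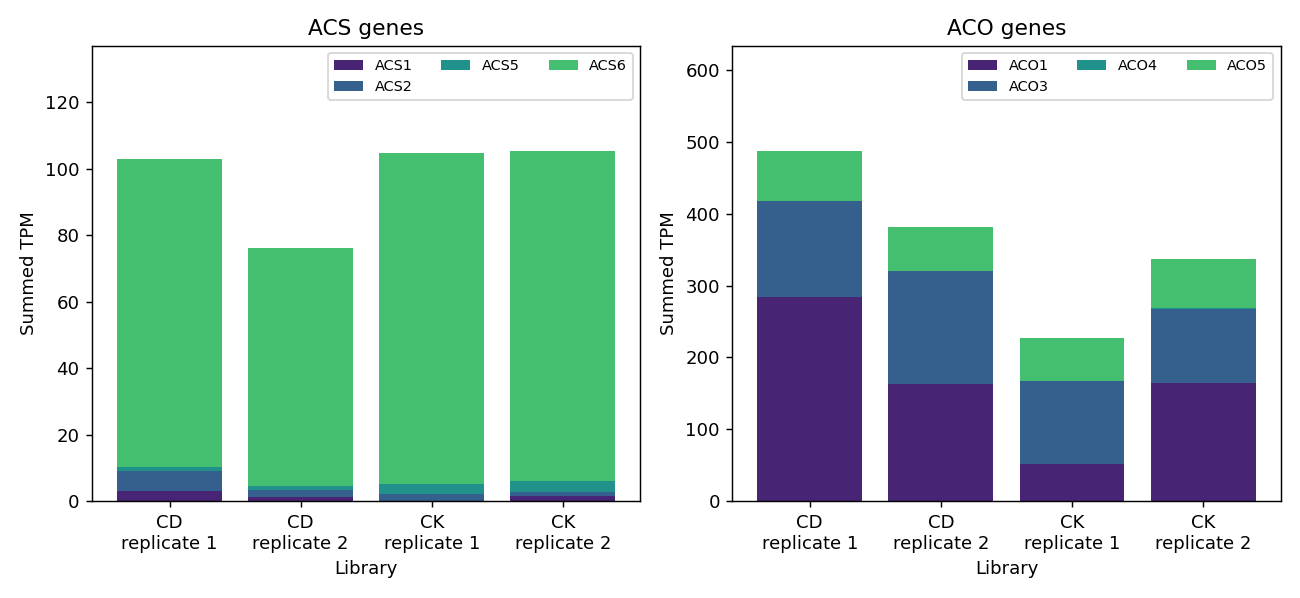
Summed TPM of the ACS genes (left) and the ACO genes (right) in each library, stacked by gene, with the CD libraries left of the CK libraries. ACS6 makes up 90.1% to 95.1% of each ACS bar. For CD replicates 1 and 2, then CK replicates 1 and 2, ACO1 is 285, 163, 51.2 and 165 TPM in the ACO bars. In the same order ACO3 is 133, 157, 117 and 103 TPM.

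The makeup of the sums also differed by library. ACS6 was 90.1% and 94.2% of the ACS sum in the CD libraries and 95.1% and 94.2% in the CK libraries. ACO1 was 58.4% and 42.7% of the ACO sum in the CD libraries and 22.5% and 48.9% in the CK libraries. ACO3 was 27.2% and 41.2% of it in the CD libraries and 51.2% and 30.7% in the CK libraries. ACO5 was 14.3% and 16.0% of it in the CD libraries and 26.2% and 20.2% in the CK libraries. The share of ACO5 was thus lower in both CD libraries, although its level overlapped between groups. The ACO sum by which it is divided was larger in both CD libraries (487 and 381 against 228 and 337 TPM). The shares were not tested.

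Genes before and after the ACC step were set beside the members. The list for SAM synthesis and the Yang cycle, which recycles the sulfur left over from ACC synthesis into methionine, had 10 genes tested. edgeR and DESeq2 called 0 of them, with 1 at an unadjusted edgeR p under 0.05, 7 above 0, 3 below 0 and a median log2 fold change of 0.07. Over all genes tested, 8.7% had such a p, 13402 of 26271 were above 0 and the median was 0.01. The gene names of only 4 of the 10 could be matched. SAMS2 (LOC_Os01g22010), a SAM synthetase gene, was far more abundant than any member, at 850 and 1068 TPM in the CD libraries and 1343 and 1149 TPM in the CK libraries. Both CD libraries were below both CK libraries, and its log2 fold change was -0.50 ± 0.25 (SE, edgeR adjusted p = 0.656), or -0.69 to -0.32 with 1 library left out. The other listed gene with a high level, LOC_Os05g04510, had 1750 and 2734 TPM in the CD libraries and 2687 and 2193 TPM in the CK libraries, with overlapping groups. Its log2 fold change was -0.24 ± 0.33 (SE), and it was -0.62 without CD replicate 2 and turned to 0.06 without CD replicate 1. The highest fold change of the list, 2.34 ± 0.80 (SE), belonged to LOC_Os10g28350, which is named here after its values were seen and whose symbol could not be matched. It had 7.71 and 1.51 CPM in the CD libraries against 1.02 and 0.805 CPM in the CK libraries, so CD replicate 1 set most of it, and it was 0.73 without that library. Of 3 more identifiers entered as family members, none with a matched name, 1 had 0 counts, 1 did not pass the filter and 1 had a log2 fold change of 0.06. That last gene had 12.6 and 14.0 TPM in the CD libraries and 11.8 and 11.7 TPM in the CK libraries. Its level thus lay between the abundant and the scarce set of members.

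The list for ethylene perception and signalling had 11 of 12 genes tested, and the receptor gene ETR4 had 0 counts in every library. edgeR and DESeq2 called 0 of the 11, with 3 at an unadjusted edgeR p under 0.05, all higher, against 876 higher ones among the 26271 genes tested. Above 0 were 9 and below 0 were 2, against 13402 and 12869 of all genes, with a median log2 fold change of 0.13 against 0.01. The symbols of 6 of the 12 could be matched. The 2 most abundant, LOC_Os02g10700 and LOC_Os07g48630, had log2 fold changes of 0.01 ± 0.20 and 0.23 ± 0.35 (SE). LOC_Os02g10700 had 313 and 240 TPM in the CD libraries against 252 and 253 TPM in the CK libraries. LOC_Os07g48630 had 324 and 162 TPM in the CD libraries against 172 and 209 TPM in the CK libraries, and both genes overlapped between groups. The sign of neither of these 2 was stable, since leaving out 1 library gave -0.18 to 0.17 for LOC_Os02g10700 and -0.34 to 0.63 for LOC_Os07g48630. The 3 genes with an unadjusted edgeR p under 0.05, picked by that p, stayed at 0.29 or more with 1 library left out. In CPM both CD libraries lay above both CK libraries for 4 of the 11, against 17.8% of all genes. They lay below for 1, against 20.7% of all genes, and 6 overlapped.

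**Figure D4:**
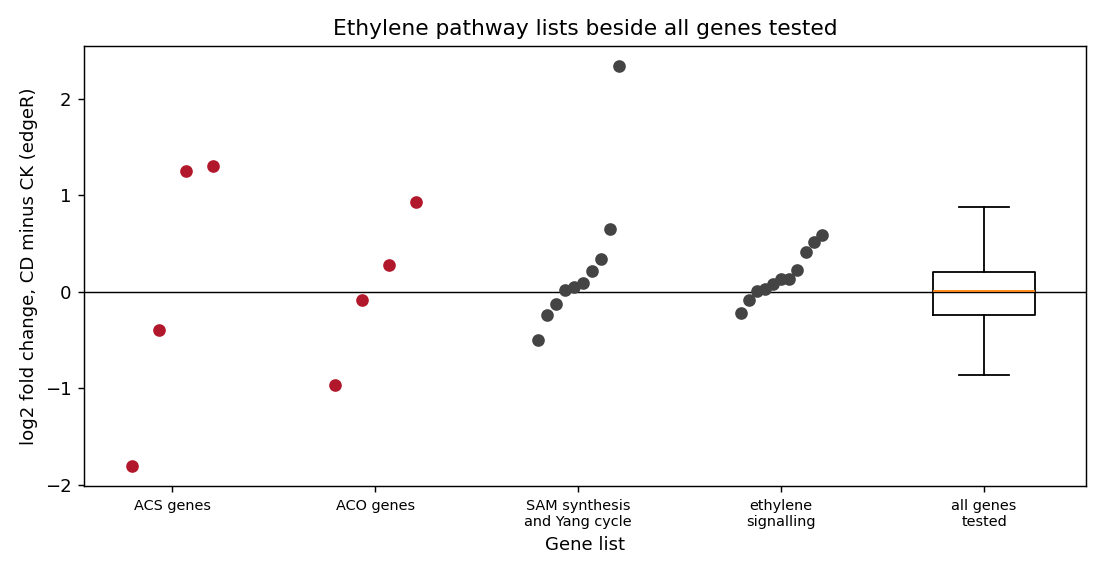
Log2 fold changes, CD minus CK, of the members (red) and of the tested genes in the lists around them (grey), beside a box for all genes tested (line at the median, box from the 25th to the 75th percentile, whiskers to the 5th and 95th). The ACS genes spread from -1.81 to 1.31 and the signalling genes from -0.22 to 0.59, and the whiskers for all genes end at -0.86 and 0.88.

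The spread of the ACC synthase genes can be read against all genes. A log2 fold change at least as large as that of ACS5, in either direction, was found for 1.75% of all genes tested, as large as that of ACS1 for 3.92% and as large as that of ACS2 for 4.32%. For ACO1 the share was 8.77%, for ACO4 8.22%, for ACS6 30.5%, for ACO3 42.4% and for ACO5 77.1%. These shares rank the size of the fold changes and are not p-values. They leave out the SE, which was 0.30 for ACS5, 1.03 for ACS1 and 0.56 for ACS2.

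Likeness of pattern was measured as the root mean square difference of log2 CPM over the 4 libraries, each gene centred on its own mean. ACS6, the ACC synthase gene with the highest mean TPM, was nearest to LOC_Os05g40150 (0.008), with 460 of 26103 genes within 0.1. ACO1, the ACC oxidase gene with the highest mean TPM, was nearest to LOC_Os03g17200 (0.060), with 6 of 26103 genes within 0.1. LOC_Os03g17200 was scarce, at 0.583 and 0.378 CPM in the CD libraries and 0.116 and 0.377 CPM in the CK libraries. With 4 libraries these are descriptions of the libraries and no more.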

How the data were processed

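The authors deposited raw counts of reads for each gene, laid out as featureCounts writes them per the file headers, for 4 RNA-seq libraries. TPM values were also deposited by the authors, and recomputing them from counts and gene length matched them to a relative tolerance of 1e-05. Tools named in the submitters' processing notes, without their roles, are featureCounts 1.6.4, HISAT2 2.0.5, SAMtools 1.9, fastp 0.21.0, FastQC 0.11.5, Bowtie2 and Bismark 0.23.0. Neither genome build nor strand setting is given in the sources used here. Positions come from the count table, and no member overlaps another gene in it. Exon blocks are its merged exons. How reads shared by similar family members were counted is not stated.

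Libraries were compared with edgeR 4.0.16 in R 4.3.3, with TMM scaling, filterByExpr and the quasi-likelihood test, and with DESeq2 1.42.0 and limma 3.58.1 as alternatives. The SE is the fold change over the square root of F. The procedure was tested on simulated data. Known changes were given there only to genes above a set mean CPM, which ACS1 and ACO4 do not reach. A chi-square statistic summed over the counts of all genes, with no p-value, was 137.7 per degree of freedom for the CD replicates. It was 81.5 for the CK replicates. The replicates were counted as separate libraries, and this statistic cannot tell separate plants from separate preparations of the same plants. The labels do not say whether replicates are separate plants, so p-values measure the spread between these libraries, which may be technical.

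The members, lists and rules were chosen with earlier results of these data known. Named genes are the 8 members, the 2 most abundant of each list with no call, and the gene nearest in pattern to the most abundant member of each family. Outside this rule, the cell type markers CAB1R, CAB2R, GS2, PCNA and OSH1, the uncounted receptor gene ETR4 and LOC_Os10g28350 are named after their values were seen. Member names follow the order in which the identifiers were listed. RefSeq names (its assembly is ASM3414082v1, of which only names are printed) were accepted on the same chromosome with a span within 1.5-fold. ACS1, ACS2 and ACO1 matched, ACS5 had a record of shorter span (2123 against 3610 bases), and ACS6, ACO3, ACO4 and ACO5 had none. The next gene lies 3904 bases from ACO1 in the count table and 3917 bases from it in RefSeq. The ACO sums are over the 4 ACO genes named, and 1 more listed gene is not reported here.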

Additional observations from a re-analysis of the deposited data

How the results depend on the processing

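Over all genes the main test called 0, with 2286 at an unadjusted p under 0.05. edgeR without a filter called 29 (14 higher, 15 lower) and DESeq2 called 502 (199 higher, 303 lower). Of the members only DESeq2 called 1, ACS5 (log2 fold change -1.80). Every other alternative called 0 genes, including limma-voom, limma on log2(TPM + 1) or log2(TPM + 0.1), RLE or total count scaling, a filter of 1 CPM in 2 libraries, and each library left out. Without single libraries the number of genes called stayed at 0 and the number at an unadjusted p under 0.05 was 880 to 4106. Of 119 member fits under 15 alternatives, 6 turned in sign, all of ACO4 or ACO5. ACO5 turned to 0.020 with total count scaling, 0.034 with log2(TPM + 1) with or without a filter and 0.035 with log2(TPM + 0.1), and lay between -0.17 and 0.017 with single libraries left out. ACO4 lay between -1.64 and 0.28, and the filter of 1 CPM in 2 libraries removed it, so that it has no value there. Total count scaling moved the median of all genes by 0.10 and log2(TPM + 0.1) by 0.11. Leaving out CK replicate 2, where ACO5 also turned, moved it by 0.009. The cause of the turns of ACO5 was not tested. The cause of the DESeq2 call was not tested. The CD to CK ratio of the summed ACO TPM was 1.54, or 1.35 in CPM, and 1.29 to 1.91 with single libraries left out, and the ACS ratio was 0.852, or 0.781 in CPM, and 0.724 to 0.980.

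Leaving out a library leaves 1 group with a lone library, which is assumed to vary like the other group. Replicate numbers are shared between groups without a stated meaning, and deviations of same-numbered libraries from their group means correlated at -0.14. With the replicate block edgeR called 0 genes and 1670 had an unadjusted p under 0.05. With the crossed replicate block, chosen after seeing the data, it called 0 genes and 2922 had one. Counts of 9 to 40 for ACO4 and 14 to 249 for ACS1 limit what could be seen for these genes.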
